A study of Mus musculus with 32 samples.

Results

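The transcriptional response to ionising radiation in thymocytes that lack p53 was followed on 4 of the 32 arrays of the series. These are the arrays titled for p53-/- mice: 1 array at 2 h and 1 array at 4 h after mice received 5 Gy of gamma radiation, and 2 arrays of untreated p53-/- mice. Each array held RNA of thymocytes pooled from 2 mice, 6 weeks old, on the C57Bl/6 strain, labelled as a male and a female. The other 28 arrays served as the yardstick of spread and as comparisons: 4 arrays of p53+/+ mice in the same layout, and 24 arrays of the P72 and R72 codon 72 knock-in mice, with 4 arrays for each genotype at 0, 2 and 4 h. All groups, irradiated or not, came from thymus at the same age. Which part of the p53 gene the p53-/- allele lacks is not given in the sources used here.

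Radiation breaks DNA, and the kinase ATM, activated at the breaks, stabilises p53 and also starts branches that do not need p53, among them the checkpoint kinases that hold cells before mitosis and the signalling that activates NF-kB. In double positive thymocytes, which carry both CD4 and CD8 and are among the cells most easily killed by radiation, p53 drives the genes of apoptosis (Bbc3, Pmaip1, Bax) and of arrest before DNA replication (Cdkn1a). E2F factors switch on the genes of DNA replication when that arrest is not in force. NF-kB is known for switching on chemokines and cytokines.

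Every level below is a log2 processed signal relative to the 75th percentile of its own array, so a gene at 0 is as bright as that percentile, and levels of different genes are not compared. A change is a difference of such levels with its standard error. A gene is called where limma's p, adjusted by Benjamini-Hochberg over all genes tested, lies under 0.05. Nothing in the labels says that the p53-/- arrays came from separate experiments, so the p-values measure spread between arrays, and the lone arrays at 2 h and 4 h were assumed to vary like the other groups.

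Facts of the arrays bear on every result. Both irradiated p53-/- arrays lay on slide 8 and both irradiated p53+/+ arrays on slide 7, with 1 untreated array of each genotype on either slide. All these arrays were scanned on scan day 4. The knock-in arrays lay on slides 1 to 6 and were scanned on days 1 to 3. A difference in level between p53-/- and knock-in arrays thus cannot be told apart from one of slide or scan day. The 2 untreated p53-/- arrays lay on different slides and differed from each other with a robust SD of 0.129, against 0.156 to 0.543 for the other 37 pairs of arrays of 1 group and 0.068 to 0.082 for repeated spots within a p53-/- array. Whether they hold separate pools is not given in the sources used here, and the main counts are therefore also given with the untreated arrays of a pair averaged to 1 sample. The 2 h array stood apart in genes with high signal: 14 genes were at least 4-fold above all the other 31 arrays there, against 0 to 4 genes on every other array. In the other direction it had 0 genes at least 4-fold below all others, while replicate 1 of untreated P72 had 16. Xist, which is transcribed from the inactive X of female cells, was not well above background on any p53-/- array, while the Y-linked Ddx3y was well above background on all 4, which goes against the label of a male and a female. Between 52.2% and 71.2% of probes were well above background over the 32 arrays, and the 75th percentile of the signal was 745.3 at 2 h and 631.7 at 4 h, against 546.5 and 500.6 on the untreated p53-/- arrays.

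**Figure D1:**
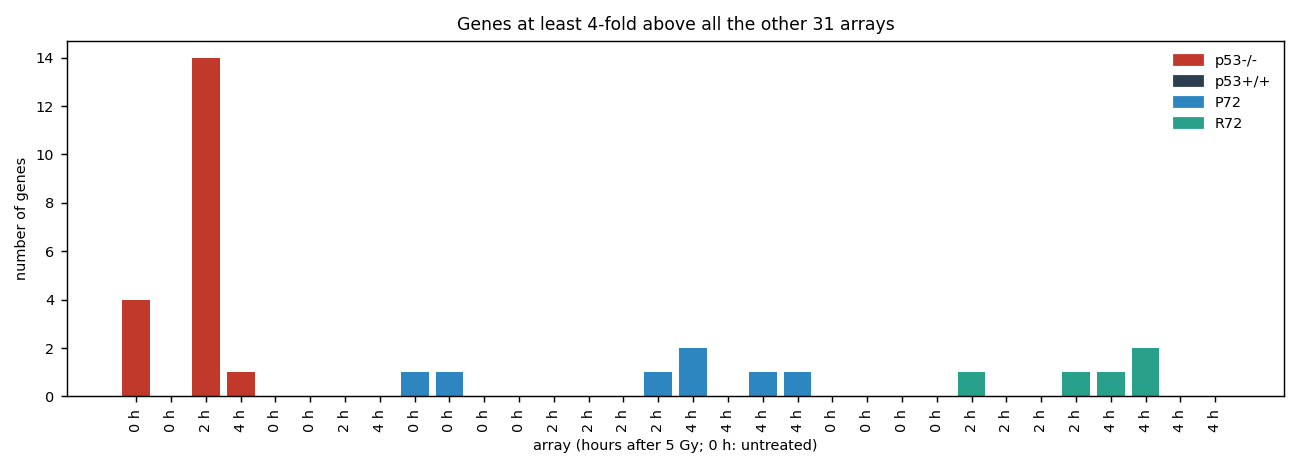
Number of genes on each array (vertical axis) whose signal was at least 4-fold above that of all the other 31 arrays and well above background, for p53-/-, p53+/+, P72 and R72 arrays at 0, 2 and 4 h. The 2 h p53-/- array has 14 such genes and no other array has more than 4.

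The samples carried thymocyte markers throughout. Rag1, a recombinase gene of double positive thymocytes, stood at 7.38 at 2 h and 7.49 at 4 h, against 7.31 and 7.41 on the untreated p53-/- arrays. The summed linear signal of 19 double positive markers was 1190 at 2 h and 1330 at 4 h, against 1350 and 1520 untreated, with a median change of -0.19 at 2 h and 0 called by limma (4 at an unadjusted p under 0.05). Cd8a stood at 6.90 and 7.05, against 7.32 and 7.32. The summed linear signal of the 22 single positive markers was 215 at 2 h and 229 at 4 h, against 290 to 299 untreated, and that of 6 erythroid markers was 254 and 247, against 455 to 475. In such bulk samples fewer cells of a type and less RNA per cell cannot be told apart.

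Trp53 itself was measured by 2 probes at mm7 chr11:69671206-69671265 and chr11:69662031-69662089, and both were well above background on all 4 p53-/- arrays. The first read -1.59 at 2 h and -1.76 at 4 h, against a range of -1.80 to -1.56 on the untreated p53-/- arrays and of -1.11 to -0.55 on all the p53+/+ arrays. The second read -0.48 and -0.45, against -0.25 and -0.09 untreated and -0.11 to 0.26 on the p53+/+ arrays. Whether these probes lie inside the deleted part is not known, so their signal does not check the genotype, and Trp53 was not called after irradiation (-0.30 ± 0.24, adjusted p = 0.694).

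Few genes were called after irradiation in p53-/- thymocytes, where each time rests on 1 array. With both times averaged, 155 genes rose and 62 fell of 20533 tested, or 0.755% and 0.302%, which became 6 and 2 with the untreated pair averaged. An unadjusted p under 0.05 by limma was reached by 2537 genes, so a gene that was not called may still have changed. It was reached by 2241 of 20534 genes at 2 h and by 1654 of 20535 at 4 h. For the differences of responses it was 4597 of 20528 against p53+/+ and 5870 of 20532 against the knock-ins. Counts of list members at an unadjusted p are to be read beside these. At 2 h 163 genes rose and 47 fell (0.794% and 0.229%; 51 and 5 with the pair averaged). At 4 h 39 rose and 5 fell (0.19% and 0.0243%; 7 and 1). Between 2 h and 4 h 17 genes rose and 32 fell (0.0828% and 0.156%). No untreated array enters this comparison except through the estimate of spread, so averaging the pair cannot check it. Of the 163 genes that rose at 2 h, 11 also rose at 4 h, which is 11 of the 39 called there, and both sets share their untreated arrays.

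The p53 target lists lay near their untreated levels by their medians, though some members moved. Of 20 measured p53 targets in apoptosis, 0 were called with the times averaged by limma, with 4 at an unadjusted p under 0.05, and their median change was -0.02, against 0.002 over all genes. Of 24 targets in cell cycle, repair and feedback 0 were called as well, with 5 at an unadjusted p under 0.05 and a median of -0.02. Such a p by limma was reached by 5 of 18 targets in metabolism and other roles, whose median was 0.08. Over all genes it was reached by 2537 of 20533. Of 18 targets in metabolism and other roles 2 rose, beside a background of 0.755%, and 0 of the 18 were called with the pair averaged or without either untreated array. At 2 h alone Pcna, the sliding clamp of DNA polymerases, and Gls2, a mitochondrial glutaminase gene, were called up and Psrc1, a gene of a spindle protein, down (0.81 ± 0.17, 1.26 ± 0.25 and -0.87 ± 0.20, adjusted p = 0.0184, 0.0112 and 0.0363), and none of these 3 was called with the pair averaged.

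Phlda3, which restrains Akt signalling, stood at -0.62 at 2 h and -0.91 at 4 h, against -0.79 and -0.65 on the untreated p53-/- arrays. Bbc3, which encodes the BH3-only killer Puma, stood at 2.54 at both times, against 2.41 and 2.62. Bax, the pore-forming effector of apoptosis, stood at 1.66 and 1.53, against 1.59 and 1.52. In none of these genes did both irradiated arrays lie on the same side of both untreated ones. Ccng1 and Aen, a cyclin and a nuclease that p53 induces, differed from untreated by -0.10 ± 0.15 and -0.19 ± 0.14 with the times averaged, and Trp53inp1 by -0.13 ± 0.10, and none was called.

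The same genes stood far higher after irradiation where p53 was present. The irradiated p53+/+ pools also differed from the untreated ones in sex-linked genes. Ddx3y stood at -6.81 at 2 h and -7.67 at 4 h there, not well above background, against 2.05 and 2.08 untreated. The part of this in the differences from p53+/+ was not tested. Phlda3 was at 5.39 at 2 h and 5.44 at 4 h in p53+/+, against 0.23 and 0.24 in untreated p53+/+, and its p53-/- response minus the p53+/+ response was -5.23 ± 0.20 (adjusted p = 5.72e-14). Bbc3 was at 6.46 and 6.72 in irradiated p53+/+, against 3.33 and 3.28 untreated, a difference of responses of -3.26 ± 0.17 (adjusted p = 1.02e-11). Against the knock-ins, 14 of the 20 apoptosis targets responded less in p53-/- and 2 (Bid and Siva1) more, with a median difference of -1.61; the background for that comparison was 7.79% lower and 4.67% higher. With the pairs averaged these counts were 13 and 2, and the second was 1 without the second untreated p53-/- array. The counts were 13 and 1 of 20 against p53+/+, where the background was 3.18% and 2.15%, or 12 and 0 with the pairs averaged. Of the 24 targets in cell cycle, repair and feedback, 12 responded less than in the knock-ins, and of the 18 in metabolism and other roles 11. With the pairs averaged these were 12 and 7, and the second was 7 and 6 without the first and the second untreated p53-/- array.

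Cdkn1a, the inhibitor of cyclin-dependent kinases that enforces G1 arrest, had the largest positive difference of the 24 targets in cell cycle, repair and feedback, though it was not called. It stood at -2.55 at 2 h and -2.15 at 4 h, against -3.30 and -3.39 on the untreated p53-/- arrays. The irradiated values were above both untreated ones (0.99 ± 0.33, adjusted p = 0.167), while p53+/+ arrays stood at 1.29 and 1.63, against -3.33 and -2.83 untreated. Its p53-/- response minus the knock-in response was -2.94 ± 0.36 (adjusted p = 1.08e-05). Plk2, Pmaip1 and Fas differed from untreated by 0.45 ± 0.41, 0.12 ± 0.25 and -0.28 ± 0.13 in p53-/-, and Mdm2, the ubiquitin ligase of p53, by -0.10 ± 0.16; none of the 4 was called.

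The 2 targets called up with the times averaged were Ier3 and Zfp365. Gdf15, from the same list of 18, was not called. It stood at -2.32 at 2 h and -2.79 at 4 h, above both untreated p53-/- arrays at -3.52 and -3.68. Ier3, an early response gene that also counts among NF-kB targets, stood at -3.89 at 2 h and -2.12 at 4 h, against -4.33 and -4.53 untreated, a change of 1.43 ± 0.25 over both times (adjusted p = 0.00554, or 0.102 with the pair averaged) and of 2.31 ± 0.31 at 4 h (adjusted p = 0.000614, or 0.0101). Zfp365 was not well above background on either untreated array, and its rise is bounded at at least 1.01-fold, with an adjusted p of 0.0258.

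**Figure D2:**
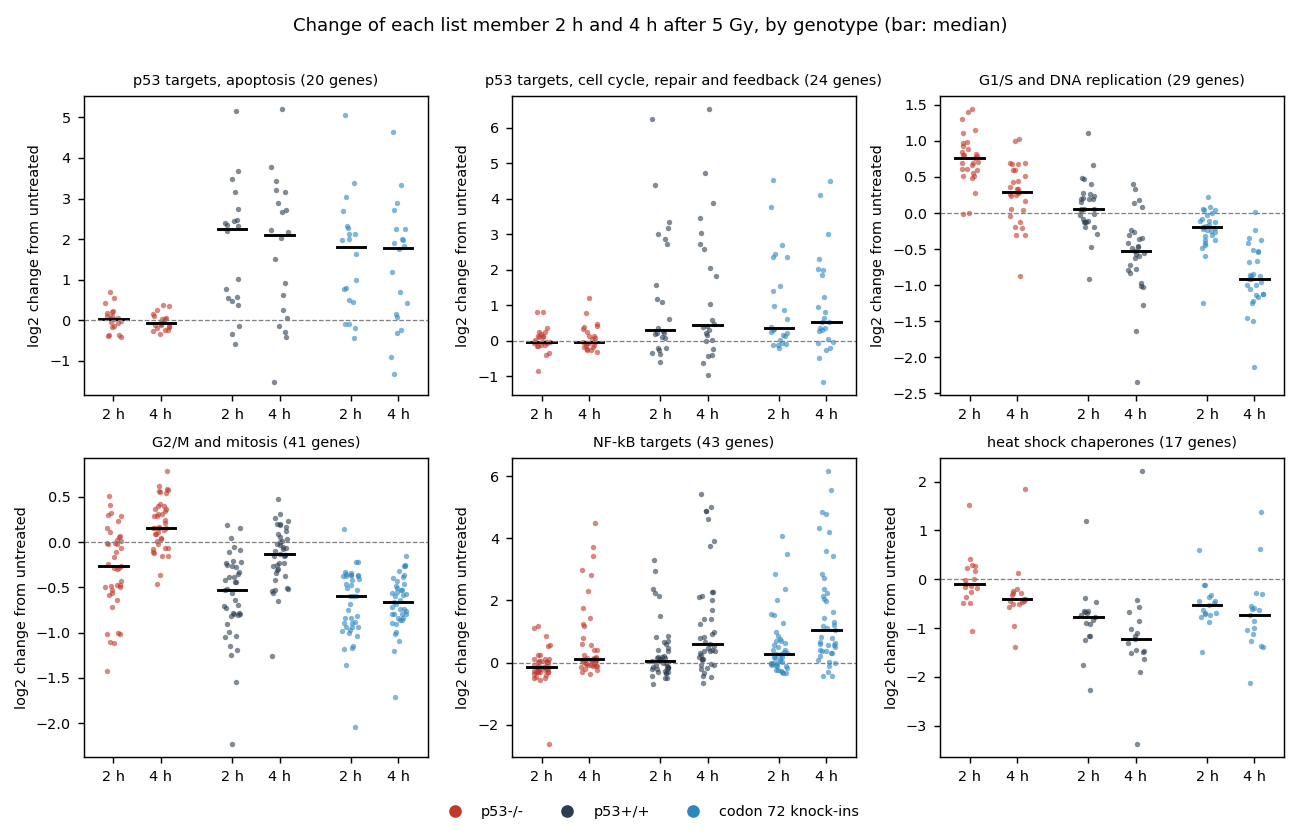
Log2 change from the untreated mean of the same genotype (vertical axis) of every measured member of 6 gene lists at 2 h and 4 h after 5 Gy, in p53-/-, p53+/+ and the codon 72 knock-ins (mean of P72 and R72), with bars at the medians. The apoptosis targets of p53 have medians of 0.04 and -0.07 in p53-/-, and the replication list lies at 0.76 and 0.29 in p53-/-, against 0.06 and -0.53 in p53+/+.

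DNA replication genes rose in p53-/- thymocytes at 2 h. Of 29 measured genes of G1/S and DNA replication 13 rose and 0 fell, beside a background of 0.794%, and 27 of the 29 changes were positive with a median of 0.76, against -0.006 over all genes. Among the 13 are Mcm7, Mcm10, Cdc6, Cdt1, Gins1, Orc1, Pole, Pcna, Rpa2, Ccne1, E2f1 and E2f8, which between them license origins, unwind and copy DNA and drive S-phase entry. With the untreated pair averaged the count was 4, with Cdc6, Pole and Cdt1 among them. It was 4 without the second untreated array and 5 without the first. Canonical histone genes lay the other way at 2 h, with a median of -0.55 and 1 of 14 changes positive. Limma called 0 of these 14, with 4 at an unadjusted p under 0.05.

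Cdc6, which loads the replicative helicase onto origins, stood at 1.72 at 2 h, against 0.29 and 0.36 on the untreated p53-/- arrays (1.40 ± 0.20, adjusted p = 0.000725). Pole, the leading-strand polymerase, stood at 3.07, against 1.76 and 1.77 (1.30 ± 0.19, adjusted p = 0.000776). Each lay above both untreated arrays by more than the untreated arrays differed. Cdt1, the partner of Cdc6 in licensing, stood at 4.86, against 3.84 and 3.90, and E2f1, a transcription factor of S-phase genes, at 0.41, against -0.53 and -0.59.

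At 4 h the list lay lower again. The median change was 0.29, 22 of 29 changes were positive and 0 were called by limma, with 10 at an unadjusted p under 0.05. Cdc6 stood at 0.91 at 4 h, still above the untreated 0.29 and 0.36, though its change of 0.59 ± 0.20 was not called (adjusted p = 0.350). From 2 h to 4 h 2 of 29 changes were positive and 1 gene (Ung, which removes uracil from DNA) fell.

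In the other genotypes the list's medians were lower over the same hours. Its median change was 0.06 at 2 h and -0.53 at 4 h in p53+/+, and -0.19 and -0.92 in the knock-ins. The p53-/- response minus the knock-in response was higher for 27 of 29 genes, beside a background of 4.67%, with a median difference of 1.04, against -0.092 over all genes; 24 of these calls were made with the untreated pairs averaged. Against p53+/+ 10 of 29 were higher (background 2.15%), or 2 with the pairs averaged, where the sex-linked genes also differ, since Xist was at 5.52 and 5.53 in irradiated p53+/+ pools and -0.87 and -1.44 in the untreated ones. Ccne1, the cyclin of S-phase entry, responded by 0.74 in p53-/-, against -0.83 in the knock-ins (difference 1.57 ± 0.16, adjusted p = 5.65e-07). Cdc6 responded by 0.99, against -0.64 (1.63 ± 0.18, adjusted p = 2.02e-06).

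Promoters of 2 replication genes that rose at 2 h are shown as examples of windows that hold an E2F word, which most windows of the list do not. RefSeq promoter windows of build GRCm38.p6, from 250 bases before to 50 after each start, were searched on both strands for TTTCCCGC, TTTCGCGC, TTTGCCGC and TTTGGCGC, none of which is another's reverse complement. Of 24 list genes matched by symbol 10 held at least 1 of these words, as did 704 of 27025 genes (2.6%). Among the 10 matched genes called at 2 h it was 4. The windows of Cdc6 (chr11:98907901-98908200, plus strand) and Cdt1 (chr8:122567765-122568064, plus strand) follow 5′ to 3′, with the E2F word in capitals.
Cdc6: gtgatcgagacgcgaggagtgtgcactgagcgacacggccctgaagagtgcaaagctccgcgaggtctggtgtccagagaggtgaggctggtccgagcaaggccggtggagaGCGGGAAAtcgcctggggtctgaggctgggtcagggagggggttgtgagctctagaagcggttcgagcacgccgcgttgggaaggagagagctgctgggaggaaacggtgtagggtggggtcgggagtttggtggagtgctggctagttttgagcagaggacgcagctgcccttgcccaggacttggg
Cdt1: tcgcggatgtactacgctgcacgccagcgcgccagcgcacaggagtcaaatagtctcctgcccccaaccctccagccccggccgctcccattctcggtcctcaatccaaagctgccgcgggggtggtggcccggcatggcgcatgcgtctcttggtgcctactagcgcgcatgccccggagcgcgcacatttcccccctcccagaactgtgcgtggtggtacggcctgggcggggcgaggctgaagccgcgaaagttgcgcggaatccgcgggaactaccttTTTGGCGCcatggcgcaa
The Cdc6 word starts at -138 from the annotated start and is read on the opposite strand, and the Cdt1 word starts at 32 after it. A match is a run of letters and was not tested as a binding site.

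Some genes of DNA break signalling and repair rose at 2 h. Of 36 measured, 6 rose and 0 fell, beside a background of 0.794%, with a median of 0.22 and 27 positive changes. Among the 6 are Brca1 and Brca2, Rad54l, a motor protein gene of recombination, the nuclease gene Exo1, and Topbp1, which activates the kinase ATR. Brca1 stood at 2.11 at 2 h and 1.89 at 4 h, against 1.13 and 1.17. Brca1 was thus above both untreated arrays at both times, with a called rise at 2 h (0.96 ± 0.16, adjusted p = 0.00272) and a difference of 0.74 ± 0.16 at 4 h (adjusted p = 0.0504). At 4 h 0 of the 36 were called by limma, with 12 at an unadjusted p under 0.05, beside 1654 of 20535 genes. With the pair averaged the count at 2 h was 2, Brca1 among them, and it was 2 without the first untreated array and 3 without the second. Against the knock-ins 16 of 36 responded more in p53-/-, beside 4.67% of all genes, or 11 with the pairs averaged and 10 without the second untreated p53-/- array, among them Chek1, the checkpoint kinase, by 1.58 ± 0.24 (adjusted p = 0.000143).

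Mitotic genes fell at 2 h. Of 41 genes of G2/M and mitosis 5 fell and 0 rose, beside 0.229% of all genes, and the median was -0.26. Ccnb1, the cyclin that brings cells into mitosis, stood at 0.25 at 2 h, against 1.72 and 1.62 on the untreated p53-/- arrays (-1.43 ± 0.30, adjusted p = 0.0151). Cdc25c, the phosphatase that activates its kinase partner, stood at -2.47, against -1.33 and -1.37 (-1.12 ± 0.24, adjusted p = 0.0208). Cenpf, a kinetochore protein gene, stood at 2.15, against 3.28 and 3.23. These values were below both untreated arrays, and Pimreg and Gpsm2 were the other members called. With the pair averaged limma called 0 of the 41, and it called 0 without either untreated array; with all arrays 14 had an unadjusted p under 0.05.

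By 4 h the median difference of the mitotic genes was 0.16, with 0 of 41 called by limma and 5 at an unadjusted p under 0.05. Ccnb1 stood at 1.30 at 4 h and Cenpf at 3.18. From 2 h to 4 h all 41 changes were positive, with a median of 0.44, though 1 (Pimreg, 1.33 ± 0.25, adjusted p = 0.0168) was called. In the knock-ins the list's median was -0.60 at 2 h and -0.66 at 4 h, and in p53+/+ it was -0.53 and -0.13. The response in p53-/- was higher than in the knock-ins for 20 of 41 genes, beside 4.67% of all genes, with a median difference of 0.66, for 1 gene with the pairs averaged, and for 3 without either untreated p53-/- array. Ccna2, the cyclin of S phase and early mitosis, differed by 0.92 ± 0.17 (adjusted p = 0.00121) and Kif11, a spindle motor, by 1.05 ± 0.25 (adjusted p = 0.00827).

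**Figure D3:**
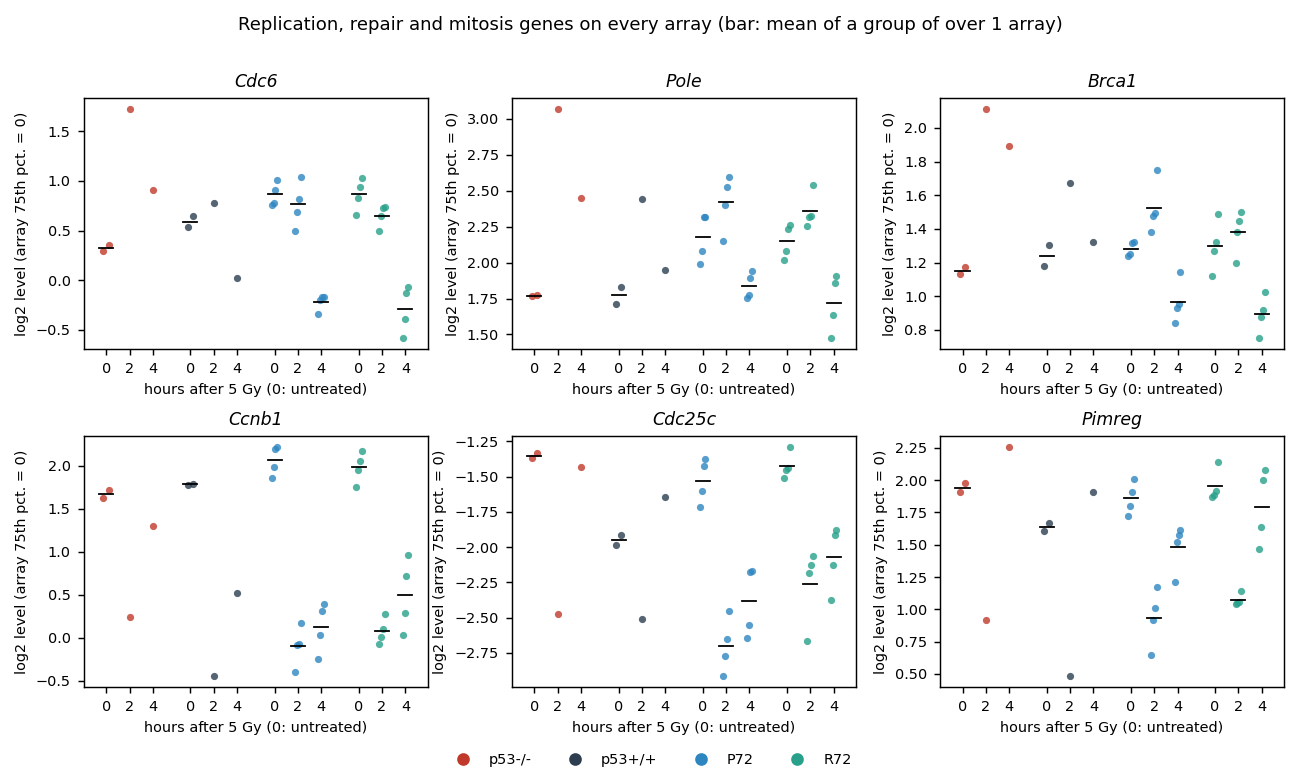
Log2 level (vertical axis, 0 is the 75th percentile of the array) of 6 genes on every array of p53-/-, p53+/+, P72 and R72 at 0, 2 and 4 h after 5 Gy, 1 point per array, with bars at the means of groups of over 1 array. In p53-/- Cdc6, Pole and Brca1 peak at 2 h, and Ccnb1 is at 0.25 at 2 h and 1.30 at 4 h, against 1.72 and 1.62 untreated.

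A few NF-kB targets, chemokine and cytokine genes among them, rose at 4 h. Of 43 NF-kB targets 6 rose and 0 fell at 4 h, beside 0.19% of all genes: Ccl2, Ccl7, Cxcl1, Il1b, Il6 and Ier3. The list's median was 0.10, so most members moved little. With the pair averaged 2 of them, Ccl2 and Ier3, were called. The count was 3 without the second untreated array and 5 without the first. At 2 h limma called 0 up and 1 down, with 4 at an unadjusted p under 0.05, beside 2241 of 20534 genes.

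Ccl2, the chemokine that draws monocytes, stood at -3.86 at 2 h and 0.52 at 4 h, against -3.92 and -4.02 on the untreated p53-/- arrays. It was thus at its untreated level at 2 h and far above it at 4 h (4.49 ± 0.49, adjusted p = 4.42e-05, or 0.00139 with the pair averaged). Timp1, an inhibitor of matrix metalloproteinases, stood at -2.43 and 0.54, against -2.20 and -2.21 (2.75 ± 0.26 at 4 h, adjusted p = 6.37e-06). Hmox1, which breaks down haem under oxidative stress, stood at -0.64 and 2.58, against -0.24 and -0.34 (2.87 ± 0.37, adjusted p = 0.000548). Mt2, a metallothionein, stood at 0.16 and 2.76, against 0.36 and 0.36 (2.39 ± 0.26, adjusted p = 4.07e-05). For these genes the 4 h array was higher than the other 3 p53-/- arrays by over 2 log2 units, and their calls held with the pair averaged.

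Other secreted and signalling genes were called at 4 h only with the untreated arrays kept apart. Il6 was not well above background on either untreated array nor at 2 h, and at -4.11 at 4 h was at least 3.92-fold higher (adjusted p = 0.00503, or 0.0568 with the pair averaged). Ptx3 and Cxcl5, a soluble pattern receptor and a neutrophil chemokine, were at least 10.9-fold and at least 8.43-fold higher in the same sense, with adjusted p of 0.0314 and 0.0133. Il1b stood at -3.21 at 2 h and -0.62 at 4 h, against -3.33 and -3.58 untreated (2.83 ± 0.50, adjusted p = 0.0143), and Il1r1 rose by 1.33 ± 0.28 (adjusted p = 0.0434). Cxcl1, another neutrophil chemokine, stood at -8.84 at 2 h, not well above background, and -2.79 at 4 h, against -5.89 and -6.54 untreated, where 1 of the 2 arrays was well above background. It was the NF-kB target called down at 2 h, where its fall is bounded at at least 1.28-fold, and it was called up at 4 h (adjusted p = 0.0132), with no size given because 1 untreated value is at background. Between 2 h and 4 h Ccl2 and Timp1 rose by 4.38 ± 0.57 and 2.96 ± 0.29 (adjusted p = 0.000299 and 2.24e-05 by limma). Averaging the untreated pair cannot check these rises, because no untreated array enters them.

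Other genes of inflammation were not called in p53-/-. Nfkbia, the inhibitor that NF-kB itself induces, stood at 5.77 at 2 h and 6.00 at 4 h, against 5.94 and 6.04 untreated. Tnf stood at -1.82 and -1.58, against -1.49 and -1.53. Casp1 and Casp4, the inflammatory caspases, differed from untreated by 0.23 ± 0.24 and 0.49 ± 0.31 with the times averaged.

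Compared with the knock-ins, 16 of the 43 NF-kB targets responded less in p53-/- and 0 more, beside 7.79% and 4.67% of all genes, with a median difference of -0.55, and 9 did so with the pairs averaged and 10 without either untreated p53-/- array. Ccl2 responded by 2.30, against 4.53 in the knock-ins (-2.22 ± 0.44, adjusted p = 0.00200), and Ccl7 by 1.82, against 5.12 (-3.30 ± 0.51, adjusted p = 0.000179). The gap was wide at 2 h: Ccl2 was at -3.86 in p53-/-, against -1.62 in p53+/+ and -1.57 to -0.32 on the 8 knock-in arrays, and at 4 h it was at 0.52, against 0.43 in p53+/+ and 0.24 to 1.37. The separate times were not tested. Ccl3, a macrophage inflammatory chemokine gene, well above background on 1 of the 2 untreated p53-/- arrays, responded by 0.55, against 3.59 (adjusted p = 0.000174). Of 27 immediate early genes 14 were lower and 1 (Myc) higher in the same comparison, with the same background; 7 and 1 were called with the pairs averaged, and 9 and 7 were lower without the first and the second untreated p53-/- array. Atf3, Jun and Fos, partners in AP-1, responded less than in the knock-ins by -3.47 ± 0.31, -1.85 ± 0.26 and -2.03 ± 0.32 on the log2 scale.

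Cells other than thymocytes were followed by their markers. The summed signal of 14 neutrophil markers was 42.5 at 2 h and 49.8 at 4 h, against 40.1 on both untreated p53-/- arrays, while in p53+/+ it was 43.4 and 92.5, against 30.0 to 30.8. That of 18 macrophage markers was 53.8 and 66.6 in p53-/-, against 69.2 to 69.8, and in p53+/+ 46.1 and 87.7, against 51.6 to 51.9. That of 15 dendritic cell markers was 46.1 and 43.9, against 43.1 to 45.1. That of 9 adipocyte markers was 1.59 and 3.37, against 1.91 to 1.95, and that of 13 B cell markers 11.2 and 17.1, against 14.4 to 14.8. That of 15 fibroblast and endothelial markers was 19.0 and 22.4, against 21.8. That of 16 thymic epithelial markers was 32 and 23.7, against 41.8 to 42.9, and in p53+/+ 36.0 and 61.1, against 36.7 to 37.5. S100a9, a defining neutrophil gene, was at 5.09 and 5.34 in p53-/-, against 5.04 and 5.07, and was well above background on all 4 arrays. At 4 h the adipocyte, neutrophil, B cell and fibroblast sums thus lay above both untreated values. The epithelial and macrophage sums lay below them. A linear sum weighs the brightest members most. By members, 8 of 9 adipocyte, 13 of 14 neutrophil, 11 of 13 B cell and 12 of 15 fibroblast and endothelial markers were positive at 4 h. So were 9 of 15 dendritic cell, 8 of 18 macrophage and 7 of 16 epithelial markers. At 2 h 13 of 14 neutrophil markers were positive too. The part of these cells in the result was not tested. In the difference from the knock-ins 6 of 16 epithelial markers were lower in p53-/-, beside 7.79% of all genes, led by Krt8 (-2.00 ± 0.33, adjusted p = 0.000436) and Krt18 (-1.89 ± 0.34), and 5 of 15 dendritic cell markers, led by Cd83 (-1.41 ± 0.30, adjusted p = 0.00363). With the pairs averaged 2 epithelial and 1 dendritic cell markers were called lower. Without the first untreated p53-/- array it was 2 and 1, and without the second 2 and 2.

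The promoters of Il6 and Cxcl1 are shown as those of the 6 NF-kB targets called at 4 h that held the NF-kB word (GGG, then any pair of bases, then TTTCC) on either strand. Of 35 list genes matched by symbol 11 held it, as did 512 of 27025 genes (1.89%), and among the 4 matched genes called at 4 h it was 2. The windows of Il6 (chr5:30012864-30013163, plus strand) and Cxcl1 (chr5:90890995-90891294, plus strand), from the same RefSeq table and build, have the word in capitals.
Il6: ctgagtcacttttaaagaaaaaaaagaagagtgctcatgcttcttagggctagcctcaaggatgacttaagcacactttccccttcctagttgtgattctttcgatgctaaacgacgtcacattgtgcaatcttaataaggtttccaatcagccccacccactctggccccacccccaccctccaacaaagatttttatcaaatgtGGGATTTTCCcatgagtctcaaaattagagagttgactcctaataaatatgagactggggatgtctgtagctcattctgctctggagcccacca
Cxcl1: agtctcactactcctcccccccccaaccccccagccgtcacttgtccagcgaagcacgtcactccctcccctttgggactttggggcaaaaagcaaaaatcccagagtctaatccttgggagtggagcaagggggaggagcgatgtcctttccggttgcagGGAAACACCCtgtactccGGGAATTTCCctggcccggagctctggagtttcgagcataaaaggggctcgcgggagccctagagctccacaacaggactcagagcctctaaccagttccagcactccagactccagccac
The Cxcl1 window holds 2 matches on opposite strands, starting at -89 and -71 from the annotated start, and that of Il6 starts at -44.

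**Figure D4:**
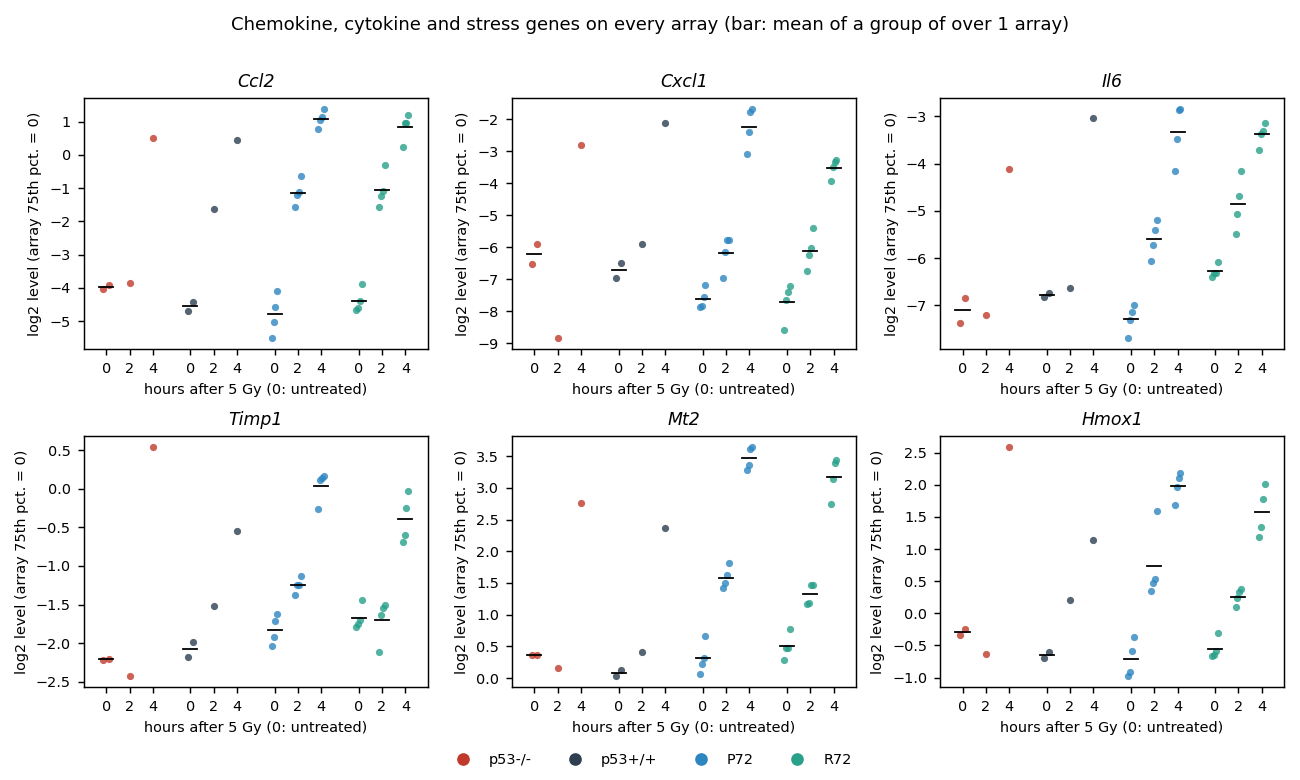
Log2 level (vertical axis, 0 is the 75th percentile of the array) of 6 genes on every array of p53-/-, p53+/+, P72 and R72 at 0, 2 and 4 h after 5 Gy, 1 point per array, with bars at the means of groups of over 1 array. In p53-/- all 6 are higher at 4 h than at 2 h and untreated, as for Ccl2, which is at -3.86 at 2 h and 0.52 at 4 h, against -3.92 and -4.02 untreated.

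Several of the named genes that fell with the times averaged act in T cells, though they form no list and were not tested as a group. Kcnn4, the potassium channel that sustains calcium entry in activated T cells, stood at 2.98 at 2 h and 3.11 at 4 h, against 3.78 and 3.72 on the untreated p53-/- arrays (-0.70 ± 0.10, adjusted p = 0.00193, or 0.0581 with the pair averaged). Sit1, an adaptor that damps receptor signalling, stood at 3.51 and 3.64, against 4.27 and 4.31 (-0.72 ± 0.14, adjusted p = 0.0109). Orai1, the pore of the calcium release-activated channel, fell by 0.80 on the log2 scale (adjusted p = 0.0493), Il4ra by 0.66 (adjusted p = 0.0347) and Cd5, an inhibitory co-receptor, by 0.56 (adjusted p = 0.0474). These were falls of less than 2-fold that lay below both untreated arrays at both times. The naming rule required this separation of genes taken for the size of their change, so it is no separate result. With the pair averaged only Kcnn4 at 2 h stayed called among them (adjusted p = 0.0348). Kcnn4 also stood lower in irradiated p53+/+, at 2.91 and 2.98, against 3.66 and 3.70. Sit1, Il4ra and Cd5 changed there by -0.39, -0.66 and -0.35 at 2 h and by -0.60, -0.56 and -0.87 at 4 h. Orai1 changed there by -0.28 and 0.02. In P72 and R72 the changes of all these genes were negative at both times, with Orai1 at -0.10 and -0.04 at 4 h. The summed signal of the single positive markers, given above, was lower on the irradiated p53-/- arrays, and its part in the falls there was not tested.

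Many of the steepest rises at 2 h were in genes that were highest on that array. Of the 163 genes called up at 2 h 126 (77.3%) had their highest value of all 32 arrays on it. These genes were called for being high on that same array, and the share over all genes was not counted. The percentage is therefore partly built in. Aif1l, an actin-binding protein gene, stood at 0.49 at 2 h and -2.58 at 4 h, against -4.16 and -4.36 on the untreated p53-/- arrays, and at most -2.98 on the 24 knock-in arrays (4.75 ± 0.40 at 2 h, adjusted p = 7.93e-07). Chst1, a keratan sulphate sulphotransferase gene, stood at -0.48 and -4.60, against -4.64 and -4.73 (4.20 ± 0.40, adjusted p = 3.36e-06). Both fell back to or towards the untreated level at 4 h. Erc2, an active zone scaffold gene of neurons, and Il22, a cytokine gene of lymphocytes, were not well above background on either untreated array and were at least 13.7-fold and at least 14.7-fold higher at 2 h, with adjusted p of 4.34e-05 and 0.000133. These calls held with the pair averaged. The interferon-stimulated gene Isg15 stood at 2.59 and 2.06, against 0.89 and 0.99 (1.65 ± 0.26 at 2 h, adjusted p = 0.00243). It was the only 1 of 35 such genes called at 2 h, beside a background of 0.794%. Of the 35 changes 28 were positive at 2 h and 28 at 4 h, with a median of 0.23 at both times. The list's median was 0 at 2 h and 0.34 at 4 h in p53+/+, and 0.02 and 0.42 in the knock-ins.

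Some called genes also differed between pools that were not irradiated. Slc15a2, a peptide transporter gene, stood at 2.08 at 2 h and 2.03 at 4 h, against -6.02 and -6.44 on the untreated p53-/- arrays, of which 1 was well above background, so that the size of the rise rests partly on a background value (adjusted p = 0.00262 and 0.00704). In untreated p53+/+ it stood at -3.27 and -2.88 and in untreated knock-ins between 0.56 and 3.04. Asns, the asparagine synthetase gene of the amino acid response, stood at 0.42 at 2 h and -2.07 at 4 h, against -2.21 and -2.33 (2.69 ± 0.27 at 2 h, adjusted p = 5.38e-06), and ranged between -2.51 and 1.06 in untreated knock-ins. Apol10b, an apolipoprotein L family gene, fell, with -3.46 and -4.90, against -1.22 and -1.10 (-3.02 ± 0.55 over both times, adjusted p = 0.00701), and in untreated knock-ins it stood between -6.58 and -4.87. For these genes an effect of irradiation and a difference between the pooled mice cannot be told apart. Because each irradiated p53-/- time was 1 array of 1 pool, this limit bears on the other genes too.

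**Figure D5:**
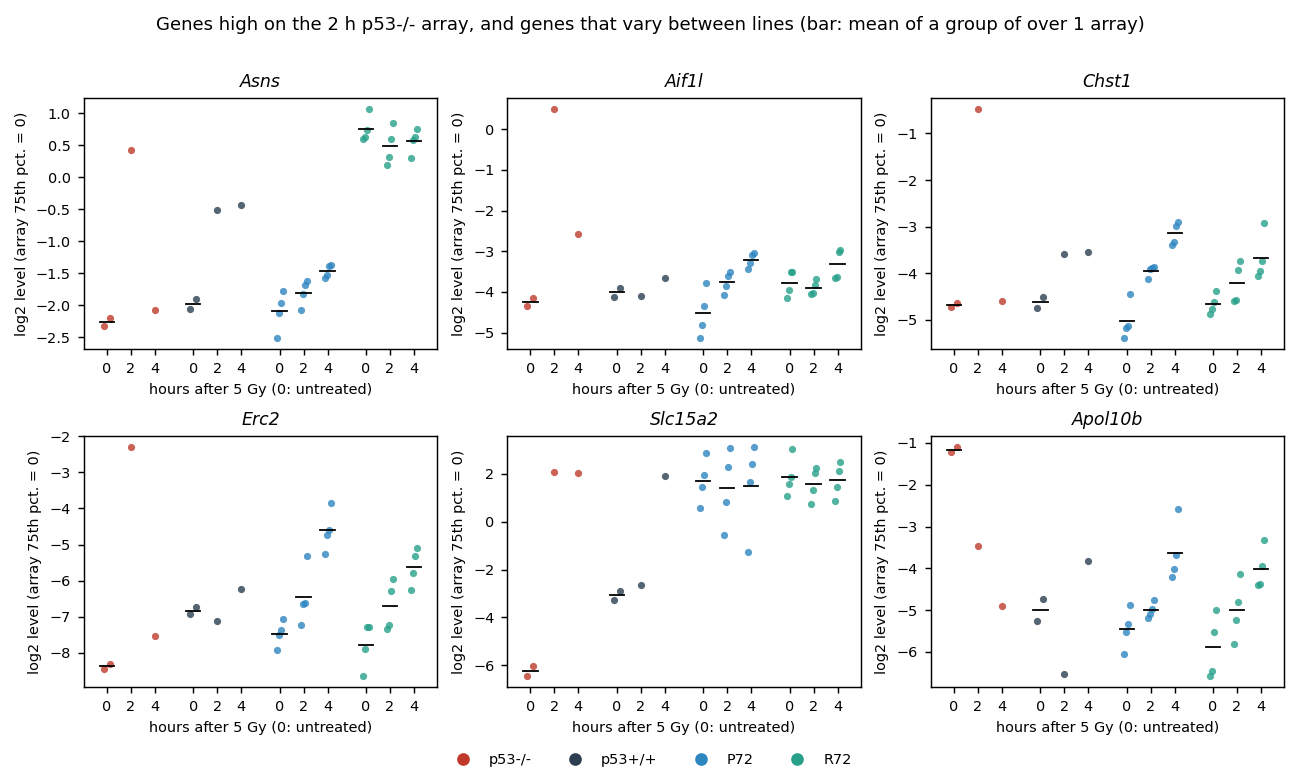
Log2 level (vertical axis, 0 is the 75th percentile of the array) of 6 genes on every array of p53-/-, p53+/+, P72 and R72 at 0, 2 and 4 h after 5 Gy, 1 point per array, with bars at the means of groups of over 1 array. Aif1l, Chst1 and Erc2 are highest of all arrays at 2 h in p53-/-, while Asns, Slc15a2 and Apol10b also differ between untreated pools of different genotypes.

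Across all genes the p53-/- response differed from the knock-in response in 958 genes that were higher and 1599 that were lower (4.67% and 7.79%), and from the p53+/+ response in 442 and 653 (2.15% and 3.18%). With the untreated pairs averaged these were 319 and 432, and 40 and 214. The split depends on the scaling: with arrays centred on their medians it was 2757 and 916 against the knock-ins, and 1660 and 387 against p53+/+, because the median over all genes moved to 0.223 and 0.284, from -0.092 and -0.074. With quantile normalization it was 1040 and 982, and 424 and 541.

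Heat shock chaperones had a less negative median change in p53-/- than in the other genotypes. Their summed linear signal in untreated mice was 508 to 524 in p53-/-, 638 to 697 in p53+/+, 498 to 551 in P72 and 452 to 600 in R72. Irradiated and untreated p53+/+ pools also differ in sex-linked genes, as given above. The part of these differences in the result was not tested. Their median change was -0.09 at 2 h and -0.41 at 4 h in p53-/-, against -0.78 and -1.23 in p53+/+ and -0.52 and -0.74 in the knock-ins. The response was higher in p53-/- for 11 of 17 against p53+/+ and 6 of 17 against the knock-ins, beside 2.15% and 4.67% of all genes, and with the pairs averaged limma called 0 and 1 of them (14 and 11 had an unadjusted p under 0.05 with all arrays). Without either untreated p53-/- array the counts were 3 and 2, and the count against p53+/+ was 6 without the first untreated p53+/+ array and 3 without the second. Hspd1, the mitochondrial chaperonin, stood at 5.09 and 4.53 in irradiated p53-/-, against 4.84 and 4.89 untreated, and its response differed by 1.07 ± 0.22 from p53+/+ (adjusted p = 0.0061) and by 1.01 ± 0.17 from the knock-ins (adjusted p = 0.000541). Myc, the growth regulator, stood at 2.76 and 2.55, against 1.77 and 1.81, above both untreated arrays though not called (0.87 ± 0.45, adjusted p = 0.448). In p53+/+ it stood at 0.16 and 0.18, against 1.47 and 1.91, and the responses differed by 2.39 ± 0.64 (adjusted p = 0.0319, or 0.21 with the pairs averaged). Against the knock-ins Myc differed by 2.25 ± 0.49 (adjusted p = 0.0048).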

How the data were processed

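RNA of pooled thymocytes was labelled with Cy3 and hybridised to 1-colour Agilent arrays, 1 sample an array. The deposited files hold spot intensity as scanned and processed with Agilent Feature Extraction 9.5.3.1, per the file headers (9.5.3 per the submitters' processing notes); the processed signal is already corrected for background by that software. The authors' deposited value table holds log2 values of the same arrays and served as an alternative. Coordinates of probes are those of the array design (mm7). Here each array's processed signals were divided by their 75th percentile and put on the log2 scale, control spots and flagged outliers were left out, spots of a probe were averaged, and probes well above background on fewer than 4 arrays were left out. A gene with several probes was read from its brightest probe on average over the arrays. For each gene limma 3.58.1 (R 4.3.3) was fitted over all 32 arrays with 12 groups, with empirical Bayes moderation and Benjamini-Hochberg adjustment over all genes; 20 residual and 2.01 prior degrees of freedom stood behind each p, mostly from knock-in arrays. The number of arrays limits the precision. The fit was tested on simulated data, in which each gene had the same spread on every array and no slide or pool effect was added. Such data cannot check whether the lone p53-/- arrays vary like the other groups.

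Bounds ("at least") compare the brighter group's mean with the higher of the dim probe's own signal and the lowest signal well above background on each array. Genes were named by a rule: a fixed set of p53 and inflammation genes, up to 15 genes that changed most each way in a comparison, and up to 6 members of each list with the smallest p. The genes that changed most were taken from called genes only. In comparisons with untreated arrays their values also had to not overlap between the sides. The genes and the 30 lists were chosen with earlier results of these data known. Alternatives were normexp background correction with an offset of 50, quantile and median scaling, the authors' table, other filters, fewer arrays, slide as a block, leaving out single arrays, and, chosen after seeing the data, averaging each untreated pair. Promoter sequences are those of RefSeq (GRCm38.p6). Figures were drawn with matplotlib 3.10.9. Some genes are not reported here.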

Additional observations from a re-analysis of the deposited data

Results flagged for a closer look

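The response to irradiation differed between genotypes by limma's test of the difference in 1095 genes against p53+/+ and in 2557 genes against the codon 72 knock-ins. The irradiated and untreated p53+/+ pools also differed in sex-linked genes, as given above. The values that follow are p53-/- response minus the other genotype's response, on the log2 scale, with both times averaged. Against p53+/+, the p53 targets Phlda3, Bbc3 and Plk2 differed by -5.23, -3.26 and -5.94, while Ccne1, Hspd1 and Myc differed by 1.30, 1.07 and 2.39.

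Against the knock-ins, targets of p53 responded less in p53-/-: Phlda3 by -4.89, Plk2 by -4.07, Gdf15 by -3.44, Bbc3 by -3.33, Psrc1 by -3.00, Cdkn1a by -2.94, Pmaip1 by -2.84, Aen by -2.68, Ccng1 by -2.59, Bax by -2.15 and Mdm2 by -0.90. Tnfsf4, in none of the p53 target lists, had a fitted difference of -5.53, but it was not well above background on either untreated p53-/- array nor at 4 h, so the size was not measured. Immediate early genes were lower too, with Atf3 at -3.47, Fos at -2.03 and Jun at -1.85, and so were the chemokine genes Ccl7 at -3.30, Ccl3 at -3.03 and Ccl2 at -2.22 and the metallothionein gene Mt2 at -0.89. The epithelial genes Krt8 and Krt18 stood at -2.00 and -1.89 and the dendritic cell gene Cd83 at -1.41. Replication, repair and mitotic genes responded more in p53-/-: Cdc6 by 1.63, Chek1 by 1.58, Ccne1 by 1.57, Pcna by 1.17, Kif11 by 1.05, Brca1 by 0.95 and Ccna2 by 0.92. Hspd1 and Myc differed by 1.01 and 2.25.

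Among the named genes, single knock-in arrays lay far from the other 3 of their group in 6 cases, where chance flags about 1 in 20 of the 186 groups looked at. In R72 these were Plk2 at 4 h (lowest, -1.23), Fos at 4 h (lowest, -1.77), Ccl7 at 2 h (highest, -2.10) and Krt18 at 2 h (highest, 3.75). In P72 they were Gdf15 at 4 h (highest, 2.45) and Chek1 at 2 h (highest, -0.61).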

How the results depend on the processing

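Each irradiated p53-/- value rests on 1 array per time, and the untreated arrays may be 1 pool. Counts of called genes moved widely, and the cause was not tested. With both times averaged 217 genes were called: 21 with normexp, 131 with quantile and 66 with median scaling, 346 in the authors' table, 117 without the filter on dim probes, 343 with slide as a random block, 23 to 42 without either untreated array, 2 from the 4 p53-/- arrays alone and 8 with the untreated pair averaged. At 2 h 210 were called: 23 with normexp, 113 with median scaling, 340 in the authors' table, 317 with slide as a random block, 63 to 76 without either untreated array and 56 with the pair averaged. At 4 h 44 were called: 5 with normexp, 24 with quantile and 28 with median scaling, 21 and 70 with slide as a fixed and a random block, 11 to 14 without either untreated array and 8 with the pair averaged. Between the times 49 were called: 8 with normexp, 30 with quantile scaling, 78 in the authors' table, 19 with probes well above background on all 32 arrays and 41 without an untreated array. From the 8 p53+/+ and p53-/- arrays alone limma called 0 genes in each of these, with 4432, 4178, 3302 and 2312 at an unadjusted p under 0.05.

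The difference from p53+/+ gave 1095 genes: 213 with normexp, 2047 with median scaling, 637 without the filter, 476 with slide as a fixed block, 454 to 728 without an untreated array and 254 with the pairs averaged. The difference from the knock-ins gave 2557: 310 with normexp, 927 to 944 without an untreated array and 751 with the pairs averaged. Among 121 results for named genes 1 reversed, Zfp365 with normexp (-0.21), and the cause was not tested; 64 lost their call with the 8 p53+/+ and p53-/- arrays alone, 59 with normexp, 43 with the pairs averaged, 35 without either untreated p53-/- array and 15 with slide as a fixed block. No paired analysis was possible because the irradiated p53-/- arrays carry no replicate number, so the groups compared share fewer than 2 numbers. Signals near background limit the dim genes, which are given as bounds.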
